A study of Mus musculus with 9 samples.

Results

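Potassium channel genes were followed in 9 RNA-seq libraries of mouse adipocyte precursors that were differentiated into beige adipocytes, which can spend fuel to make heat. The set was every row of the count table whose gene symbol starts with Kcn, which gave 99 of 55359 listed genes. They comprised 30 voltage-gated, 15 inward rectifier, 14 tandem pore-domain and 8 calcium- or sodium-activated channel genes and 10 silent subunits that modify voltage-gated channels. The rest were 5 single-pass KCNE subunits, 4 calcium-binding KChIP subunits, 4 BK beta subunits, 3 cytosolic beta subunits, 1 channel regulator and 5 noncoding transcripts, so not every row encodes a channel. Of these, 25 had a mean of 1 count per 1000000 counts (CPM) or more on some day, and 22 of them are described by name below. The least abundant of the 25, Kcnc2, reached 1.02 CPM on its highest day, and the genes just under that limit reached 0.88, 0.845 and 0.832 CPM.

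The source was inguinal white fat, a depot under the skin that holds precursors of beige cells. The day 0 libraries were made from precursors that had not been induced (n = 3), and the others from cells on day 4 (n = 3) and day 8 (n = 3) of differentiation. No genotype, strain, age or genetic change is given in the labels used here for any of these groups. Induction used dexamethasone, a glucocorticoid, IBMX, a phosphodiesterase inhibitor that raises cyclic AMP, indomethacin, insulin, triiodothyronine (thyroid hormone) and rosiglitazone, which activates PPARγ, the main receptor of fat cell formation. The first 3 of these agents were withdrawn after the induction period, so the day 4 and day 8 cells shared the inducers and differed in time. Whether replicates were separate cultures or animals is not stated in the labels. The p-values therefore measure the spread between these libraries alone, which may be technical. Total counts per library ranged from 26387408 to 31474490. In the GENCODE M21 annotation, exons of 11 of the 25 named genes overlap another gene, Kcnab2 on the same strand and the rest on the opposite strand. Reads of such pairs may be shared or lost, and the counting's strand setting is not given in the sources used here.

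Potassium channels let potassium leave the cell and so hold the membrane potential negative. Pore-forming families include the tandem pore-domain background channels, the voltage-gated channels, the inward rectifiers and the calcium- or sodium-activated channels, and accessory subunits set how they traffic and gate. In thermogenic fat, TASK-1, the acid-sensitive background channel encoded by Kcnk3, is known to hyperpolarize the membrane and to damp the calcium influx, cyclic AMP and lipolysis that adrenergic signals raise.

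The makeup of the potassium channel transcripts changed from 1 dominant gene to another. Summed over the 99 genes, the level was 232 ± 23.4 CPM on day 0, 318 ± 37.3 CPM on day 4 and 362 ± 64.3 CPM on day 8 (SD, n = 3 libraries per day). Kcne4, which encodes an inhibitory single-pass subunit of voltage-gated channels, made up 57.0 to 63.4% of this sum on day 0, 6.04 to 23.8% on day 4 and 6.0 to 10.2% on day 8. Kcnk3 made up 0.0598 to 0.0994% on day 0, 55.0 to 69.7% on day 4 and 58.4 to 71.9% on day 8. Without Kcnk3, the pore-forming genes together held 70.9 to 73.2 CPM on day 0, 48.0 to 77.4 CPM on day 4 and 87.0 to 88.5 CPM on day 8. These sums use library totals scaled by TMM. The factors were 1.17 to 1.18 on day 0, 0.881 to 0.996 on day 4 and 0.861 to 0.948 on day 8. Scaled by total counts alone, every day 0 sum would be higher and every later sum lower. The order of days 0 and 8 without Kcnk3 therefore depends on the scaling, and the rise of the whole sum would be smaller. Kcnk3 was 75.7 to 76.0% of the pore-forming sum on day 4 and 67.5 to 77.9% on day 8. The number of Kcn genes with at least 1 count was 50 to 56 on day 0, 40 to 55 on day 4 and 43 to 48 on day 8. Replicate 2 of day 4 gave the 23.8% for Kcne4, the 55.0% for Kcnk3, the 48.0 CPM and the 55 genes. Replicates 1 and 3 of day 4 had 6.04 and 6.62% Kcne4 and 69.7 and 69% Kcnk3. Without Kcnk3, their pore-forming genes held 77.4 and 73.9 CPM, and 40 and 45 Kcn genes had a count.

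**Figure D1:**
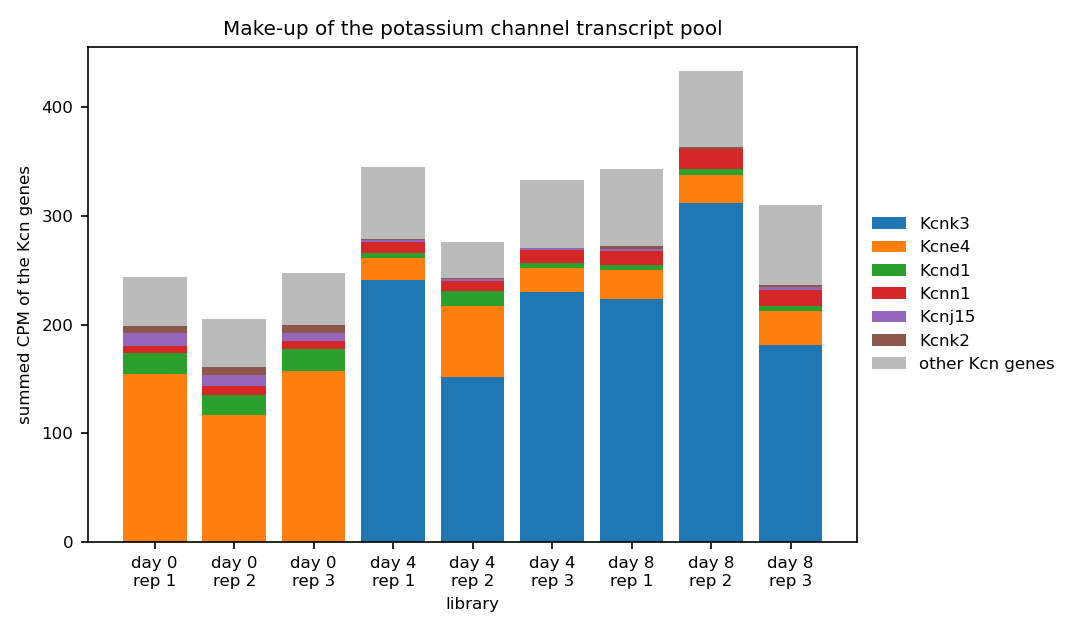
Summed level of the 99 Kcn genes in each library, in CPM, stacked by gene, for days 0, 4 and 8 with 3 libraries each. Kcne4 takes 57.0 to 63.4% of the day 0 bars, and Kcnk3 takes 55.0 to 69.7% of the day 4 bars and 58.4 to 71.9% of the day 8 bars.

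Between days, 30 of the 99 genes had enough counts to be tested with edgeR's quasi-likelihood test, adjusted by Benjamini-Hochberg over the 14649 genes tested. In day 8 against day 0, 14 were higher and 15 lower at an adjusted p below 0.05, and the median log2 fold change of the 30 was -0.85. The background over all genes tested was 63.4% called, 33.5% higher and 29.9% lower, with a median of 0.03. In day 4 against day 0, 11 were higher and 13 lower with a median of -1.03, where 54.6% of all genes were called, 28.6% higher and 26% lower, with a median of -0.01. In day 8 against day 4, 5 were higher and 3 lower with a median of 0.16, where 22.4% of all genes were called, 11.7% higher and 10.8% lower, with a median of 0.003. Genes that pass the filter on low counts only through a day on which they are high had to differ between days, so the counts of members describe the set and support nothing. Each pair of these comparisons shares the libraries of 1 day.

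Of the 25 genes at 1 CPM or more, 11 were higher, 13 lower and 1, Kcnj4, passed no test in day 8 against day 0. In day 4 against day 0, 9 were higher, 12 lower and 4, among them Kcnab3, Kcnj4 and Kcnk6, passed no test. In day 8 against day 4, 4 were higher (among them Kcna7, Kcnk5 and Kcnn1), 3 lower (Kcnab1, Kcnh4 and Kcnip3) and 18 passed no test. Over these 3 comparisons in turn, 63.4%, 54.6% and 22.4% of all genes tested were called. The 25 genes were chosen by their level on some day. Their counts, and the family counts below, therefore describe the set and support nothing. Replicate 2 of day 4 stood apart from its group. It scored 13.7 on principal component 1, with 75.7% of the variance, against 84.6 and 69.5 in the other day 4 libraries, 72.7 to 92.0 on day 8 and -138.2 to -135.4 on day 0.

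**Figure D2:**
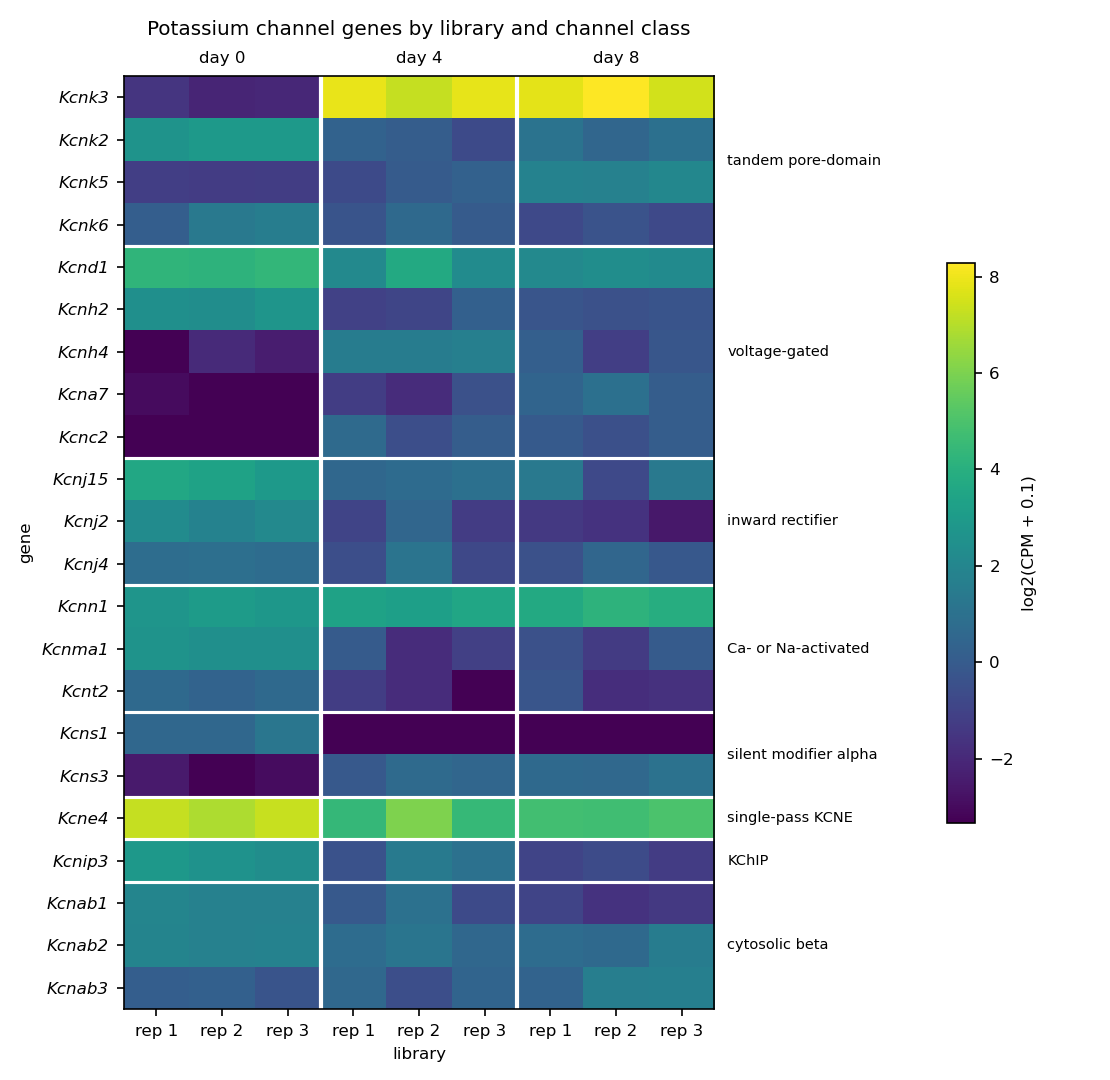
Level of 22 of the 25 genes, as log2(CPM + 0.1), in each of the 9 libraries, with genes in rows grouped by family and libraries in columns ordered day 0, day 4, day 8. Kcne4 is the highest row on day 0 and Kcnk3 on days 4 and 8, and replicate 2 of day 4 keeps more Kcne4 (65.7 CPM) and Kcnd1 (13.4 CPM) than the other day 4 libraries.

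The promoters of 3 genes of different course are shown with the GC boxes that a search found, because the data bear on when each was high. Kcnk5 was called higher at each step, Kcnj2 was lower on both later days, and Kcne4 held most of the channel transcripts on day 0. Each window is the 250 bases before the gene's start in RefSeq, build GRCm38.p6, which is not the build of the counts, and capitals mark the letters GGGCGG, searched on both strands.
Kcnk5, minus strand, chr14:20181783-20182032: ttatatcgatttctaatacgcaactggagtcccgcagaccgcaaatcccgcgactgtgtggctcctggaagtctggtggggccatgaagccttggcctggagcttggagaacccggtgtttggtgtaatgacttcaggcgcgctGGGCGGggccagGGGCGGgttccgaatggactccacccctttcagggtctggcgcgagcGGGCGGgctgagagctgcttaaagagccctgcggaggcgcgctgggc
Kcnj2, plus strand, chr11:111065914-111066163: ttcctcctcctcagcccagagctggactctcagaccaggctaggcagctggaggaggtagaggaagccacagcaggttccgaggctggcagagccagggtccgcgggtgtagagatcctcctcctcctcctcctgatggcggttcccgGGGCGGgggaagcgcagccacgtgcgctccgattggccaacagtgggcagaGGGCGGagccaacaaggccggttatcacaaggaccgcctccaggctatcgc
Kcne4, plus strand, chr1:78816661-78816910: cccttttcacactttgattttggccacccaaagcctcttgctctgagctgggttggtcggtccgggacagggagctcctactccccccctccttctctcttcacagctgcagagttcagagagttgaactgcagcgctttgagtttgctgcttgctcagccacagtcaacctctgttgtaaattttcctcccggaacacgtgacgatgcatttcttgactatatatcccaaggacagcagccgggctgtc
The window of Kcnk5 held 3 GC boxes at a GC content of 62.8%, that of Kcnj2 held 2 at 65.6%, and that of Kcne4 held 0 at 53.2%. Other windows did not keep this order. Those of Kcnh2, Kcnma1 and Kcnj4, whose day means were highest on day 0, also held 3 each. That of Kcna7, which was higher on later days, held none. Over the 32 windows of the 18 named genes with a RefSeq promoter, GGGCGG was found in 15, from 14 genes, against 32.7% of 32851 windows of all genes. The other motifs searched were TATAAA (the TATA box), TTGCNNAA (a C/EBP core), AGGTCA (a nuclear receptor half-site) and TGACGT (a cyclic AMP response half-site). They were found in 0, 2, 0 and 1 of the 32 windows, against 12.4%, 9.56%, 14% and 6.47% of all windows. A match is a description of letters, and a missing match says only that they are not in that window.

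Of the tandem pore-domain genes, 4 of 14 were named. Day 8 against day 0 had 2 of them higher and 2 lower, beside 33.5% and 29.9% of all genes. Kcnk3 (ENSMUSG00000049265, chromosome 5) had 0.243, 0.13 and 0.148 CPM on day 0, 241, 152 and 230.0 CPM on day 4 and 223, 312 and 181 CPM on day 8. The day 0 libraries held 9, 4 and 5 Kcnk3 counts, and every later library held at least 4182, so the days 4 and 8 stood far apart from day 0 and overlapped with each other. The log2 fold change was 10.37 (SE 0.38, adjusted p = 4.45e-08) in day 8 against day 0, 10.17 (SE 0.38, adjusted p = 4.15e-08) in day 4 against day 0 and 0.20 (SE 0.23, adjusted p = 0.546) in day 8 against day 4. Per kilobase of exon, the Kcnk3 level was 60.1 ± 16.8 CPM on day 8 and 0.0436 ± 0.0153 CPM on day 0 (SD, n = 3). A transcript named Gm9899 overlaps 229 exonic bases of Kcnk3 on the opposite strand and held 947 counts over all libraries, against 35704 for Kcnk3.

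Kcnk5, which encodes TASK-2, a background channel opened by alkaline conditions, was highest on day 8. It had 0.35, 0.324 and 0.325 CPM on day 0, 0.501, 0.907 and 1.1 CPM on day 4 and 3.4, 3.35 and 4.03 CPM on day 8. The 3 days did not overlap, and the later the day, the higher the level. edgeR gave log2 fold changes of 3.41 (SE 0.36, adjusted p = 2.25e-05) in day 8 against day 0, 1.32 (SE 0.37, adjusted p = 0.0119) in day 4 against day 0 and 2.09 (SE 0.34, adjusted p = 0.00283) in day 8 against day 4. Without replicate 3 of day 4, the day 4 against day 0 value was 1.08 with an adjusted p of 0.0525.

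The other named tandem pore-domain genes, Kcnk2 and Kcnk6, were lower in day 8 against day 0. Kcnk2, which encodes TREK-1, a channel that responds to stretch and to lipids, had 6.07, 7.64 and 7.4 CPM on day 0, 1.17, 0.98 and 0.512 CPM on day 4 and 2.05, 1.32 and 1.82 CPM on day 8. Both later days lay below every day 0 library and the day 8 libraries lay above those of day 4. The log2 changes were -2.02 (SE 0.31, adjusted p = 0.000261) in day 8 against day 0, -2.98 (SE 0.34, adjusted p = 3.82e-05) in day 4 against day 0 and 0.96 (SE 0.34, adjusted p = 0.0616) in day 8 against day 4. DESeq2 called the difference between days 8 and 4 (0.96, adjusted p = 0.0256), as did edgeR without replicate 1 of day 4 (adjusted p = 0.0352). Kcnk6, which encodes TWIK-2, a weakly rectifying background channel, had 1.02, 2.53 and 2.96 CPM on day 0, 0.709, 1.49 and 0.906 CPM on day 4 and 0.486, 0.678 and 0.491 CPM on day 8. Day 0 ranged widely and overlapped day 4, and day 8 lay below both. The log2 change was -1.97 (SE 0.47, adjusted p = 0.00403) in day 8 against day 0 and -1.06 (SE 0.45, adjusted p = 0.0688) in day 4 against day 0. The day 4 against day 0 value passed the threshold without replicate 1 of day 0 (-1.41, adjusted p = 0.0197), without replicate 2 of day 4 (-1.42, adjusted p = 0.0273) and with scaling by total counts (-1.36, adjusted p = 0.0265).

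**Figure D3:**
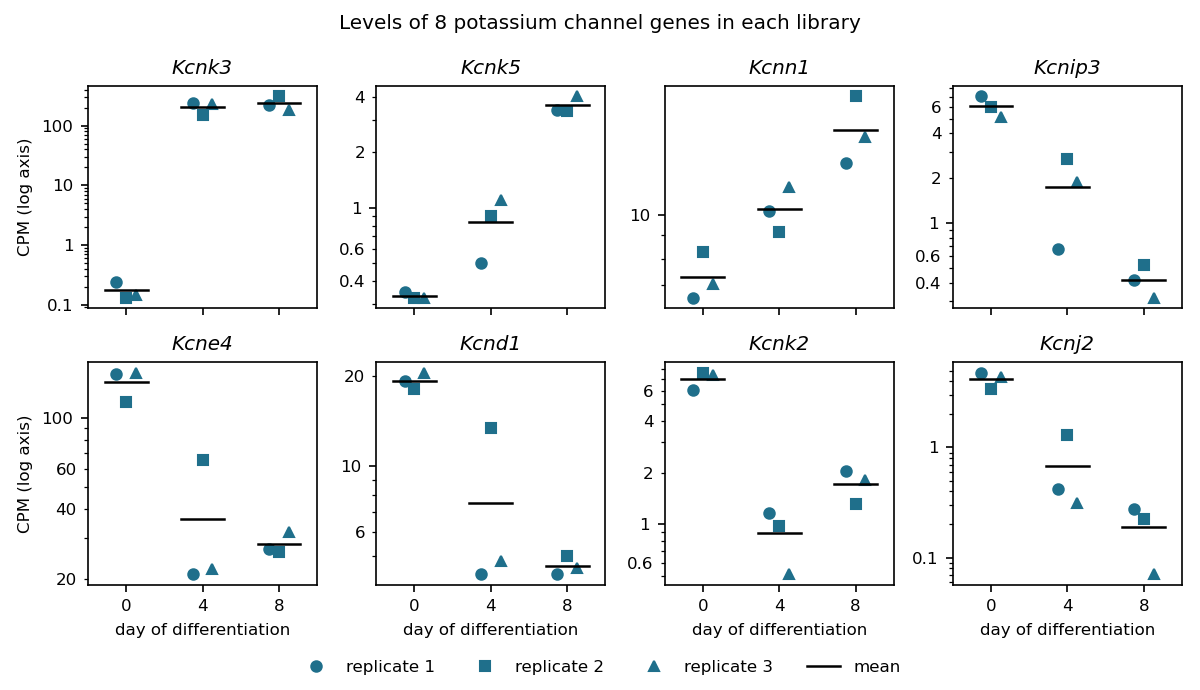
Level of 8 potassium channel genes in each library, in CPM on a log axis, by day of differentiation; points are libraries, marked by replicate, and lines are means of 3. Kcnk3 is high by day 4, Kcnk5 and Kcnn1 are highest on day 8, Kcnip3 is lowest on day 8, Kcne4, Kcnd1 and Kcnj2 fall with replicate 2 of day 4 above its group, and Kcnk2 is lowest on day 4.

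Of the 30 voltage-gated genes, 8 had a mean of 1 CPM or more on some day. Among these, 6 were higher and 2 lower in day 8 against day 0, beside 33.5% and 29.9% of all genes. Kcnc2, Kcnh4 and Kcna7 were of low level and higher on both later days. Kcnc2, which encodes the fast delayed rectifier Kv3.2, had 25, 16 and 28 counts on day 8 and 36, 16 and 25 on day 4, against 0 in every day 0 library. Set against a floor of 3 counts over the day 0 group, it was at least 27.9-fold higher on day 8 and at least 34-fold higher on day 4 (edgeR adjusted p = 0.000173 and 0.000167). Without replicate 1 of day 0, the floor itself rises with the smaller group, and the bounds are 17.7-fold on day 8 and 21.6-fold on day 4. The levels were 0.867, 0.603 and 0.981 CPM on day 8 and 1.5, 0.581 and 0.984 CPM on day 4.

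Kcnh4, which encodes an Elk-type channel, was highest on day 4. It had 0, 0.162 and 0.0887 CPM on day 0, 2.84, 2.87 and 3.15 CPM on day 4 and 1.04, 0.339 and 0.771 CPM on day 8, without overlap between days. The log2 fold change was 3.10 (SE 0.71, adjusted p = 0.00304) in day 8 against day 0, 5.13 (SE 0.69, adjusted p = 0.000132) in day 4 against day 0 and -2.03 (SE 0.55, adjusted p = 0.0248) in day 8 against day 4. The day 0 level rested on 0, 5 and 3 counts, and without replicate 1 or 2 of day 0 the values were 2.47 and 3.93 in day 8 against day 0 and 4.51 and 5.97 in day 4 against day 0. The drop between day 4 and day 8 no longer passed without replicate 3 of day 4 (adjusted p = 0.0692) or replicate 2 or 3 of day 8 (adjusted p = 0.0784 and 0.0576).

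Kcna7, which encodes Kv1.7, had 113 counts on day 8 and 29 on day 4, against 1 on day 0. The ratio to day 0 was 137 on day 8 (95% counting interval 24.1 to 5460) and 38.4 on day 4 (6.36 to 1570), with edgeR adjusted p = 7.22e-05 and 0.00147. Without replicate 1 of day 0, which held that 1 count, the change is at least 29-fold on day 8 and at least 8.13-fold on day 4. Every day 8 library (1.25, 1.84 and 0.981 CPM) was above every day 4 library (0.334, 0.181 and 0.63 CPM). Its log2 change was 1.82 (SE 0.55, adjusted p = 0.038). This call was lost when any 1 library other than replicate 3 of day 4 was left out (adjusted p 0.0503 to 0.121), or when only the 6 libraries of days 8 and 4 were fitted (adjusted p = 0.0589).

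Kcnd1 and Kcnh2 were the 2 voltage-gated genes that fell. Kcnd1 (ENSMUSG00000009731, chromosome X), which encodes Kv4.1, an A-type channel that inactivates quickly, had 19.3, 18 and 20.5 CPM on day 0, 4.34, 13.3 and 4.8 CPM on day 4 and 4.34, 5.01 and 4.56 CPM on day 8. Every later library was below day 0, and replicate 2 of day 4 lay between the 2 levels. edgeR gave log2 fold changes of -2.06 (SE 0.37, adjusted p = 0.000693) in day 8 against day 0 and -1.36 (SE 0.36, adjusted p = 0.00889) in day 4 against day 0, where it was -2.08 without replicate 2 of day 4. Between day 8 and day 4 it was -0.70 (SE 0.37, adjusted p = 0.191). Kcnh2, which encodes the hERG channel of cardiac repolarization, had 5.47, 5.05 and 6.63 CPM on day 0, 0.376, 0.435 and 1.06 CPM on day 4 and 0.729, 0.64 and 0.701 CPM on day 8. All later libraries were below all day 0 libraries. Fitted log2 changes were -3.04 (SE 0.38, adjusted p = 6.36e-05) in day 8 against day 0 and -3.19 (SE 0.39, adjusted p = 6.72e-05) in day 4 against day 0, the second being -3.80 without replicate 3 of day 4.

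The silent Kv9 subunits, which form channels only together with other pore-forming subunits, moved in opposite directions. Kcns1 had 51, 43 and 76 counts on day 0 and none in any later library. It was at least 46.7-fold lower on day 8 and at least 42.8-fold lower on day 4, against a floor of 3 counts over the later group (edgeR adjusted p = 0.000251 and 0.000372). With 1 fewer later library the floor is higher, and the bounds are 30.7-fold and 30.8-fold without replicate 1 or 3 of day 8, and 27.5-fold without replicate 2 of day 4. Kcns3 had 0.0809, 0 and 0.0296 CPM on day 0, 0.835, 1.52 and 1.34 CPM on day 4 and 1.46, 1.43 and 1.96 CPM on day 8. The later days overlapped and lay above day 0. The fitted changes, in log2, were 5.23 (SE 0.63, adjusted p = 4.97e-05) in day 8 against day 0 and 4.84 (SE 0.64, adjusted p = 0.000114) in day 4 against day 0. Day 0 held 3, 0 and 1 counts, and without replicate 1 of that day the values were 6.33 and 5.96.

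Of the 15 inward rectifiers, 3 were named. Among these, 2 fell and 1 passed no test in day 8 against day 0, beside 29.9% of all genes lower. Kcnj15, which encodes Kir4.2, had 12.3, 10.2 and 7.66 CPM on day 0, 1.38, 1.56 and 1.85 CPM on day 4 and 2.5, 0.49 and 2.52 CPM on day 8. The days 4 and 8 overlapped and lay below day 0. The log2 changes were -2.45 (SE 0.47, adjusted p = 0.00102) in day 8 against day 0 and -2.65 (SE 0.48, adjusted p = 0.000909) in day 4 against day 0. Kcnj2, which encodes Kir2.1, a strong inward rectifier that clamps the resting potential, had 4.8, 3.4 and 4.35 CPM on day 0, 0.417, 1.31 and 0.315 CPM on day 4 and 0.278, 0.226 and 0.0701 CPM on day 8. The 3 days did not overlap and the level was lower the later the day. Changes on the log2 scale were -4.42 (SE 0.60, adjusted p = 0.000113) in day 8 against day 0 and -2.60 (SE 0.53, adjusted p = 0.00187) in day 4 against day 0. Without replicate 2 of day 4 the second value was -3.50. The day 8 against day 4 value of -1.82 (SE 0.63, adjusted p = 0.0612) missed the threshold, and DESeq2 called it (-1.85, adjusted p = 0.0175). So did edgeR without the filter on low counts (-1.82, adjusted p = 0.0302), without replicate 1 of day 4 (-2.08, adjusted p = 0.0394) and without replicate 3 of day 4 (-2.17, adjusted p = 0.0482).

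Kcnj4, which encodes Kir2.3, had 1.7, 1.78 and 1.6 CPM on day 0, 0.584, 2.1 and 0.472 CPM on day 4 and 0.625, 1.32 and 0.806 CPM on day 8. Replicate 2 of day 4 was the highest of the 9 libraries, and the other day 4 libraries were among the lowest. On the log2 scale the change was -0.89 (SE 0.54, adjusted p = 0.172) in day 8 against day 0 and -0.67 (SE 0.54, adjusted p = 0.312) in day 4 against day 0. Without replicate 2 of day 4, both passed, at -0.94 (adjusted p = 0.0362) and -1.67 (adjusted p = 0.00641), and a fit to the 6 libraries of days 8 and 0 alone also called the first (-0.90, adjusted p = 0.0439).

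The calcium- and sodium-activated genes gave 1 rise and 2 falls among the 3 named of 8. These calls are for day 8 against day 0, where 33.5% of all genes were higher and 29.9% lower. Kcnn1, which encodes SK1, a small-conductance channel opened by calcium through calmodulin, had 6.55, 8.26 and 7.04 CPM on day 0, 10.2, 9.18 and 11.5 CPM on day 4 and 13, 18.3 and 14.9 CPM on day 8. The 3 days did not overlap, and each later day was higher than the one before. Its fitted log2 fold change was 1.08 (SE 0.19, adjusted p = 0.00053) in day 8 against day 0, 0.50 (SE 0.19, adjusted p = 0.0417) in day 4 against day 0 and 0.58 (SE 0.18, adjusted p = 0.0473) in day 8 against day 4. The day 4 against day 0 call was lost with scaling by total counts (0.17, adjusted p = 0.418), under which the median of all genes was -0.34. It was also lost with DESeq2's size factors (adjusted p = 0.0502), without the filter on low counts (adjusted p = 0.0844) and without 5 of the 9 libraries (replicate 1 or 3 of day 0, replicate 1 or 3 of day 4, or replicate 3 of day 8; adjusted p 0.0573 to 0.149). The day 8 against day 4 call was lost without any 1 library other than replicate 1 of day 8 (adjusted p 0.068 to 0.145). Nor did it hold with DESeq2's size factors (adjusted p = 0.0592), with total counts (adjusted p = 0.053), without the filter (adjusted p = 0.0756) and in a fit to the 6 libraries of days 8 and 4 (adjusted p = 0.113).

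Kcnma1, which encodes the pore of the BK channel, opened by voltage and calcium together, had 6.12, 5.44 and 5.33 CPM on day 0, 0.918, 0.181 and 0.354 CPM on day 4 and 0.625, 0.301 and 0.911 CPM on day 8. All later libraries were below all of day 0. Fitted log2 changes were -3.19 (SE 0.51, adjusted p = 0.000315) in day 8 against day 0 and -3.55 (SE 0.53, adjusted p = 0.000264) in day 4 against day 0, the second being -4.38 without replicate 1 of day 4. Kcnt2, which encodes the sodium-activated channel Slick, had 1.48, 1.2 and 1.48 CPM on day 0, 0.334, 0.181 and 0 CPM on day 4 and 0.729, 0.188 and 0.21 CPM on day 8. The later days overlapped and lay below day 0. The fitted changes, in log2, were -1.86 (SE 0.70, adjusted p = 0.038) in day 8 against day 0 and -3.00 (SE 0.78, adjusted p = 0.00792) in day 4 against day 0. The first call was lost without any 1 library of day 0 (adjusted p = 0.0886, 0.0687 and 0.0884 for replicates 1, 2 and 3) and without replicate 2 or 3 of day 8 (adjusted p = 0.124 and 0.117). Its value was -2.77 without replicate 1 of day 8. The day 4 against day 0 value was -3.83 without replicate 1 of day 4.

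Of the 5 named accessory subunits, 4 were lower in day 8 against day 0 and 1 was higher. Of all genes tested, 29.9% were lower and 33.5% higher. Kcne4 (ENSMUSG00000047330, chromosome 1), the only named gene of the 5 single-pass KCNE subunits, had 154, 117 and 157 CPM on day 0, 20.9, 65.7 and 22.1 CPM on day 4 and 26.8, 26.1 and 31.8 CPM on day 8. Every later library was below day 0, and replicate 2 of day 4 was the highest of them. The log2 fold change was -2.34 (SE 0.39, adjusted p = 0.000396) in day 8 against day 0 and -1.98 (SE 0.38, adjusted p = 0.00141) in day 4 against day 0, where it was -2.73 without replicate 2 of day 4. Per kilobase of exon, the Kcne4 level was 10.6 ± 1.16 CPM on day 8 and 53.7 ± 8.36 CPM on day 0 (SD, n = 3), the highest of the 25 genes on day 0.

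Kcnip3, which encodes KChIP3, a calcium-binding subunit of Kv4 channels also known as the transcriptional repressor DREAM, had 7.09, 6.02 and 5.12 CPM on day 0, 0.668, 2.69 and 1.89 CPM on day 4 and 0.416, 0.527 and 0.315 CPM on day 8. The 3 days did not overlap, and each later day was lower than the one before. edgeR gave log2 fold changes of -3.85 (SE 0.48, adjusted p = 6.03e-05) in day 8 against day 0, -1.79 (SE 0.42, adjusted p = 0.0044) in day 4 against day 0 and -2.06 (SE 0.48, adjusted p = 0.0137) in day 8 against day 4.

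Of the cytosolic beta subunits, which bind voltage-gated channels of the Kv1 family, 2 fell and 1 rose in day 8 against day 0. Beside them stand the 29.9% of all genes lower and 33.5% higher. Kcnab1 had 3.77, 3.3 and 3.37 CPM on day 0, 0.835, 1.89 and 0.512 CPM on day 4 and 0.416, 0.226 and 0.28 CPM on day 8, so that the days did not overlap. On the log2 scale the change was -3.48 (SE 0.50, adjusted p = 0.000148) in day 8 against day 0, -1.68 (SE 0.44, adjusted p = 0.00809) in day 4 against day 0, and -1.80 (SE 0.50, adjusted p = 0.0287) in day 8 against day 4. Without replicate 2 of day 4, the day 4 against day 0 value was -2.37. The day 8 against day 4 call was lost without that library (-1.16, adjusted p = 0.0783), without replicate 1, 2 or 3 of day 8 (adjusted p = 0.0504, 0.0921 and 0.0739) and in a fit to the 6 libraries of days 8 and 4 (adjusted p = 0.0744).

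Kcnab2 had 3.67, 3.3 and 3.46 CPM on day 0, 1.63, 2.21 and 1.38 CPM on day 4 and 1.63, 1.47 and 2.84 CPM on day 8, with every later library below day 0. Its log2 fold change was -0.81 (SE 0.32, adjusted p = 0.0446) in day 8 against day 0. That call was lost without any 1 library other than replicate 2 of day 4 or replicate 3 of day 8 (adjusted p 0.0509 to 0.135) and without the filter on low counts (adjusted p = 0.0665). In day 4 against day 0 it was -0.99 (SE 0.32, adjusted p = 0.0227), and the call was lost without replicate 1 or 3 of day 0 (adjusted p = 0.0629 and 0.0532) or replicate 1 or 3 of day 4 (adjusted p = 0.0617 and 0.0875). Kcnab3 had 0.997, 1.07 and 0.71 CPM on day 0, 1.42, 0.581 and 1.22 CPM on day 4 and 1.18, 3.05 and 3.08 CPM on day 8. Its days 4 and 0 overlapped, as did its days 8 and 4, and the log2 fold change was 1.39 (SE 0.46, adjusted p = 0.0205) in day 8 against day 0. That call was lost with scaling by total counts (1.03, adjusted p = 0.0616), without replicate 1 or 3 of day 0 (adjusted p = 0.0532 and 0.0792) and without replicate 2 or 3 of day 8 (adjusted p = 0.0706 and 0.0703). Its day 8 against day 4 value of 1.19 (SE 0.46, adjusted p = 0.0856) passed without replicate 1 of day 8 (1.52, adjusted p = 0.0425).

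**Figure D4:**
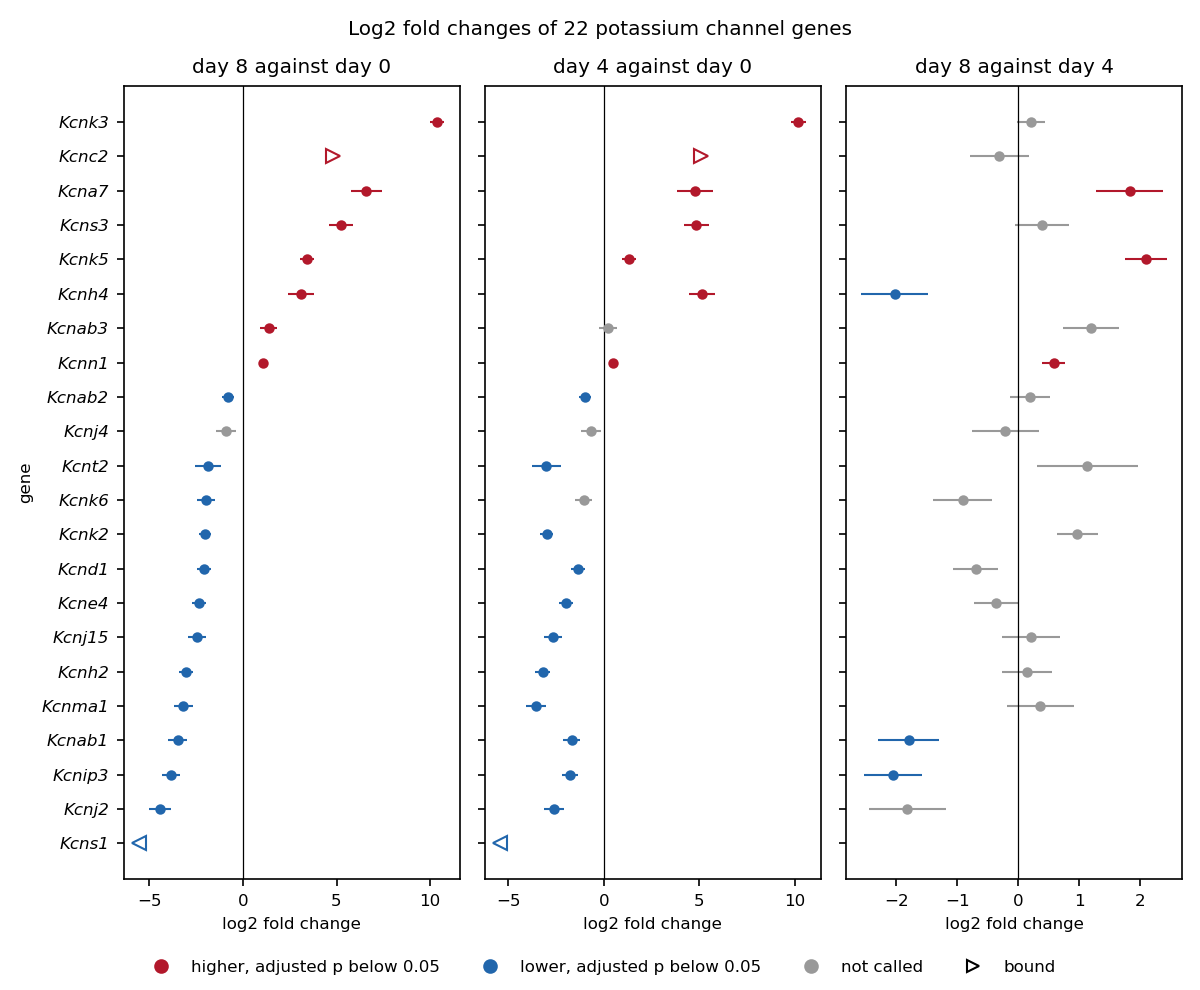
Log2 fold change of 22 of the 25 genes, with bars of 1 SE, with a panel for each pair of days, the later over the earlier. Red and blue points have an adjusted p below 0.05 and grey points do not, hollow triangles are the lower bounds of Kcnc2 and Kcns1, the Kcna7 points rest on 1 count on day 0, and Kcns1 has no point in day 8 against day 4, where both days had 0 counts. Kcnk3 stands farthest to the right at 10.37 and 10.17.

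Of the 74 genes below 1 CPM on every day, 20 had no count in any library and 54 had at least 1 count. Of these, 5 had enough counts to be tested, and the highest day mean of the 74 was 0.88 CPM. A floor of 3 counts in a library corresponds to 0.0809 to 0.125 CPM, by counting error only.

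Beyond the Kcn symbols, 6 lists of genes that act on the same ions or signals were counted. Of 11 tested sodium-potassium pump genes, 4 were higher and 4 lower in day 8 against day 0, with a median of -0.19. Beside it and the lists below stand the 63.4% of all genes that were called in this comparison, 33.5% higher and 29.9% lower. Of 5 tested cation-chloride cotransporter genes, 1 was higher and 1 lower in day 8 against day 0, with a median of 0.07. Slc12a7, which encodes KCC4, a potassium-chloride exporter, averaged 9.58 ± 0.514 CPM on day 0, 30.4 ± 12.3 CPM on day 4 and 45.4 ± 10.1 CPM on day 8 (SD, n = 3). On a log2 scale it changed by 2.24 (SE 0.28, adjusted p = 6.73e-05) in day 8 against day 0. Of 5 tested voltage-gated calcium channel genes, 1 was higher and 3 lower, with a median of -1.76. Cacna1c, the L-type channel Cav1.2, averaged 18.4 ± 3.42 CPM on day 0, 2.83 ± 1.79 CPM on day 4 and 2.12 ± 0.252 CPM on day 8. The log2 change was -3.12 (SE 0.38, adjusted p = 5.18e-05) in day 8 against day 0 and -2.69 (SE 0.37, adjusted p = 0.000156) in day 4 against day 0, the second being -3.35 without replicate 2 of day 4.

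Of 5 tested cyclic nucleotide-gated and HCN channel genes, 2 were higher and 1 lower in day 8 against day 0, with a median of 0.69. Hcn2, a channel opened by hyperpolarization and cyclic nucleotides that passes potassium and sodium, had 4.26, 4.7 and 4.88 CPM on day 0, 12.2, 5.3 and 12.4 CPM on day 4 and 74.6, 106 and 60.2 CPM on day 8. It was highest on day 8 without overlap. The log2 changes were 4.12 (SE 0.34, adjusted p = 3.9e-06) in day 8 against day 0 and 3.01 (SE 0.32, adjusted p = 0.000359) in day 8 against day 4. Of 7 tested adrenergic receptor genes, 4 were higher and 2 lower in day 8 against day 0, with a median of 2.09. Adra1a, an alpha-1 receptor, had no count on day 0 and averaged 2.59 ± 0.361 CPM on day 8 and 0.523 ± 0.208 CPM on day 4. It was at least 87.7-fold higher on day 8 and at least 18.1-fold higher on day 4, with day 0 set at that floor. The bounds without replicate 1 of day 0 are 55.8-fold on day 8 and 11.5-fold on day 4.

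Of 3 tested genes in a mixed list of accessory subunits and channels without a Kcn symbol, 0 were higher and 2 were lower in day 8 against day 0. Neither of the 2 is an accessory subunit, and the tested accessory subunit of the list, Abcc9, passed no test (adjusted p = 0.126). Pkd2, which encodes the cation channel polycystin-2, averaged 144 ± 19.8 CPM on day 0, 57.5 ± 17.2 CPM on day 4 and 29.5 ± 9.08 CPM on day 8. Its log2 fold change was -2.29 (SE 0.26, adjusted p = 3.66e-05) in day 8 against day 0 and -0.96 (SE 0.26, adjusted p = 0.0237) in day 8 against day 4, the second lost without replicate 2 or 3 of day 8 (adjusted p = 0.0736 and 0.0558).

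In day 4 against day 0, where 54.6% of all genes were called, the tested members of these lists gave 3 higher and 3 lower of 11 for the pump, 1 and 2 of 5 for the cotransporters and 0 and 2 of 5 for the calcium channels. They gave 2 and 1 of 5 for the cyclic nucleotide-gated and HCN channels, 4 and 2 of 7 for the adrenergic receptors and 0 and 2 of 3 for the mixed list. The counts of higher and lower members in day 8 against day 4, where 22.4% of all genes were called, were 4 and 0 for the pump, 1 and 0 for the cotransporters and 1 and 0 for the calcium channels. They were 2 and 0 for the cyclic nucleotide-gated and HCN channels, 2 and 1 for the adrenergic receptors and 0 and 1 for the mixed list. The members and lists were chosen with earlier results of these data known, so the counts are a description and show nothing particular to the lists.

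Markers of cell identity moved over the same days as the channels, with 6 of 6 adipocyte markers and 4 of 4 thermogenic markers higher in both day 8 and day 4 against day 0. Of all genes, 33.5% were higher and 29.9% lower in day 8 against day 0, and 28.6% and 26% in day 4 against day 0. In day 8 against day 4, where these shares were 11.7% and 10.8%, 3 of 4 thermogenic markers were higher and 0 lower. In that comparison, 4 of 5 tested precursor markers and 1 of 6 adipocyte markers were lower and 0 higher. The 6 adipocyte markers summed to 21190 to 38530 CPM on day 4 and 28470 to 30120 CPM on day 8, against 312 to 392 CPM on day 0. The 4 thermogenic markers summed to 183 to 549 CPM on day 4 and 1063 to 1727 CPM on day 8, against 0 to 0.108 CPM on day 0. The 6 precursor markers summed to 654 to 1622 CPM on day 4 and 429 to 552 CPM on day 8, against 1315 to 1426 CPM on day 0, with 0 higher and 2 lower of 5 tested in day 8 against day 0 and 3 higher and 2 lower in day 4 against day 0. In replicate 2 of day 4, Fabp4 was at 12180 CPM, where the day mean was 18620. The precursor markers Pdgfrb and Pdgfra were at 271 and 155.5 CPM, where the day means were 149 and 100.8. Both lay nearer their day 0 means of 836 and 182.8 CPM, as did Dpp4 at 0.145 CPM. Ly6a, Cd34 and Dlk1 were at 1132, 40.7 and 21.8 CPM, where the day means were 697, 31.2 and 14.9. They lay farther from their day 0 means of 349, 9.62 and 6.86 CPM. In bulk RNA, fewer cells of a type and less RNA per cell cannot be told apart, and the part of either in the channel changes was not tested.

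Markers of other cell types were also summed, since many of these channels are known from nerve and muscle. The 5 skeletal muscle markers summed to 8.26 to 12.4 CPM on day 8 and 2.09 to 6.75 CPM on day 4, against 30.4 to 37.0 CPM on day 0, almost all of it Acta1, with Myod1, Ckm and Myh4 at 0 everywhere. The 5 Schwann cell and neuron markers summed to 3.20 to 7.78 CPM on day 8 and 3.09 to 12.6 CPM on day 4, against 52.3 to 65.9 CPM on day 0, of which the day 0 mean of Tubb3 was 59.9 CPM. Beside these counts and those below stand the 33.5% of all genes higher and 29.9% lower in day 8 against day 0. In that comparison, 1 of 2 tested skeletal muscle markers and 1 of 4 tested Schwann cell and neuron markers were lower and 0 higher. The 5 smooth muscle and mural markers were at 29.0 to 50.9 CPM on day 8 and 15.0 to 21.9 CPM on day 4, against 15.4 to 21.0 CPM on day 0, with 2 higher and 1 lower of 4 tested in day 8 against day 0. The day means of Des (4.44 to 22.5 CPM) and Cspg4 (3.94 to 14.7 CPM) rose from day 0 to day 8. Those of Myh11 (8.3 to 1.84 CPM), Abcc9 (1.79 to 0.562 CPM) and Rgs5 (0.342 to 0 CPM) fell. The 5 endothelial markers summed to 0.414 to 1.16 CPM on day 8 and 0.376 to 2.03 CPM on day 4, against 1.59 to 3.17 CPM on day 0, with 3 of 4 tested lower and 0 higher in day 8 against day 0. Macrophage markers summed to between 6.42 and 17.0 CPM, and mammary epithelial markers were at or below 0.621 CPM in all libraries. Whether Acta1, Tubb3, the mural and the endothelial markers moved with the channels for a shared reason was not tested.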

How the data were processed

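RNA came from the supernatant of a spun detergent lysate with cycloheximide, and libraries were made with a stranded, ribosome-depleted total RNA kit, per the labels' protocols, so nuclear transcripts may be under-represented. The authors deposited raw counts per gene for 9 libraries, without normalization. The submitters' processing notes name HISAT2, featureCounts and build GRCm39; versions, annotation and strand setting are not given in the sources used here. Total counts ranged from 26387408 to 31474490, and no pair of libraries of a day agreed within sampling noise (chi-square per degree of freedom 15.5 to 229).

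The tests ran in R 4.3.3, using edgeR 4.0.16 (TMM scaling, filterByExpr with minimum count 10 and minimum total 15, 1 quasi-likelihood fit to all 9 libraries, 6 residual degrees of freedom, two-sided F-tests, Benjamini-Hochberg adjustment over 14649 genes, threshold 0.05). The fit was checked on simulated counts in which few genes changed, on day 8 only and evenly up and down. That check does not cover changes as broad as those here or a library that stands apart. Each SE was derived from the test, as the size of the log2 fold change divided by the square root of the F statistic. CPM uses TMM-scaled totals. Levels per kilobase use the union of GENCODE M21 exons. Where a day had 0 counts, the fold is a bound against 3 counts over the group. Alternatives were DESeq2 1.42.0, other scalings, no filter, a replicate block, only the 6 libraries compared, other CPM limits and each library left out. The text names Kcn genes with a mean of 1 CPM or more on some day and, of each related list, the called gene with the largest day 8 against day 0 change among those at that level; some of these are not reported here. Members and lists were chosen with earlier results of these data known.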

Additional observations from a re-analysis of the deposited data

How the results depend on the processing

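Under every alternative run, the counts of Kcn genes called in day 8 against day 0 (29, range 25 to 34) and day 4 against day 0 (24, range 21 to 30) stayed within 1.5 times, as did the number of genes with a mean of 1 CPM or more (25; 19 at 2 CPM, 30 at 0.5 CPM). The number tested and the share of all genes called also moved, so a steady count does not show stability. In day 8 against day 0, 28 to 79 Kcn genes were tested and 37.9 to 67.3% of all genes were called. In day 4 against day 0 these were 26 to 79 and 32.3 to 60.1%. In day 8 against day 4 they were 25 to 79 and 12.5 to 29%. The count in day 8 against day 4 was 8, and it was 11 with DESeq2, 5 with only the 6 libraries compared and 4 to 9 with 1 library left out, lowest without replicate 3 of day 8 and 5 without replicate 2 of day 8. With the replicate number as a block it was 5, 28 in day 8 against day 0 and 24 in day 4 against day 0. The block ended the calls of Kcna7, Kcnab1 and Kcnn1 in day 8 against day 4 (adjusted p = 0.0731, 0.0517 and 0.0566) and of Kcnab2 in day 8 against day 0 (0.0609). The labels do not say whether the numbers pair the libraries. Same-numbered libraries deviated together with r from -0.126 to 0.273 over 9 pairs, 2 of them above 0.1, and 11 of 18 best matches shared the number. These values do not settle whether the libraries pair. They were treated as unpaired because the labels name no pairing. Some values that passed no test changed sign. Kcnab3 in day 4 against day 0 was -0.14 with total counts and -0.037 to 0.51 with 1 library left out. In day 8 against day 4, leaving out 1 library gave log2 values of -0.035 to 0.37 for Kcnk3, -0.64 to 0.34 for Kcne4, -0.12 to 0.76 for Kcnh2, -0.65 to 0.066 for Kcnc2, -0.086 to 1.197 for Kcnma1, -0.57 to 0.73 for Kcnj4, -0.083 to 0.65 for Kcnj15, -0.17 to 0.36 for Kcnab2 and -0.69 to 0.19 for Cacna1c. Over all genes described and alternatives, 15 values changed sign, 66 lost a call, 14 gained one and 1114 kept both, and the cause was not tested. Genes with few counts on a day, such as Kcna7, Kcnh4 and Kcns3, are limited by depth, as are the 74 genes below 1 CPM.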
